A study of Mus musculus with 16 samples.

Results

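Transcripts of 41 genes of DNA replication and mitosis were followed in 2 kinds of mouse bone marrow progenitor, each with normal or reduced Dnmt1. The genes were listed by name, 27 for mitosis and 14 for replication, and each was read from its brightest probe set on the array. Of these, 26 mitosis genes and 13 replication genes were measured, 39 of the 22180 genes on the array with a single gene name. Cyclin B1 (Ccnb1) and cyclin E2 (Ccne2) had no probe set that named them alone and were not analysed here. No filter on low levels was applied, and the lowest single value of a measured gene was 5.10 (E2f1), above the median of every array.

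A dividing cell first copies its DNA in S phase and then separates the copies in mitosis. In late mitosis and G1, Cdc6 and Cdt1 load the Mcm2 to Mcm7 helicase onto origins. Cyclin E and E2F1 carry the cell into S phase, and PCNA, ribonucleotide reductase and thymidylate synthase serve the fork and its supply of nucleotides. Mitosis genes are transcribed later in the cycle, peak around G2 and M phase, and encode cyclins, kinases, motors, kinetochore proteins and the machinery that splits the cell. Early blood progenitors divide often, so both groups of genes are expressed in them.

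The 16 arrays formed 4 groups of 4: Dnmt1c/chip cMoPs, Dnmt1+/+ (control) cMoPs, Dnmt1c/chip MDPs and Dnmt1+/+ (control) MDPs. MDPs can give rise to macrophages and dendritic cells, and cMoPs are the monocyte progenitors that follow them. All were flow-sorted from the marrow of mice aged 8 to 12 weeks as lineage-negative, Kit-high, CD115-positive, CD11b-negative cells, with surface Ly-6C present on cMoPs and absent on MDPs. Dnmt1 is the enzyme that copies DNA methylation after replication. The c/chip mice carry a null and a hypomorphic allele of it in every cell of the body, so marrow surroundings differ between the genotypes along with the progenitors. The labels name no further allele or treatment. Nothing in them ties an array to an animal or a pool, so the p-values given describe the spread among these arrays, part of which may be technical.

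Values are log2 levels. A gene was called where its limma p, adjusted by the Benjamini-Hochberg method over all 22180 genes, was at most 0.05. Dnmt1 was called lower in c/chip cells of both kinds, by 1.10 in MDPs (−1.10, SE 0.137, adjusted p = 3.48e-04) and by 0.91 in cMoPs (−0.91, SE 0.137, adjusted p = 0.00814), with no overlap between arrays. Of the sorting markers, Kit and Csf1r (CD115) lay between 8.16 and 9.51 on every array. Csf1r was at 8.16 to 8.97 in c/chip MDPs and 8.83 to 9.18 in control MDPs (difference −0.47, not called). The other 4 sorting markers lay above 0 between the MDP genotypes, and 1 of them, Ly6c2, was called higher in c/chip MDPs (difference 1.06). Itgam (CD11b) was at 5.68 to 6.57 in c/chip MDPs and 5.45 to 6.61 in control MDPs. Ly6c2 was at 12.03 to 12.18 in c/chip cMoPs and 11.97 to 12.07 in control cMoPs, and its transcript was also present in the cells sorted as lacking surface Ly-6C, at 11.09 to 11.42 in c/chip MDPs and 9.90 to 10.42 in control MDPs. In c/chip MDP replicates 1, 3 and 4, Xist (9.51 to 10.65) was high together with the mean of Y-linked transcripts (5.27 to 6.42), whereas on all other arrays only one of the pair was high. Results for c/chip MDPs are therefore also given with replicate 2 alone standing for that group.

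The 2 groups of genes lay on opposite sides of 0 when c/chip MDPs were set against control MDPs. Of the 26 mitosis genes, 23 had lower mean levels in c/chip MDPs, with a median difference of −0.33. Of the 13 replication genes, 9 had higher mean levels, with a median difference of 0.17. Over all genes the median was 0.03 and 54.3% lay above 0. The test called 3 mitosis genes lower, Kif23, Cenpf and Prc1, and 0 higher, where 0.685% of all genes were called lower and 1.26% higher. It called 0 replication genes. At an unadjusted p under 0.05, 13 mitosis genes were lower and 0 higher, against 5.87% of all genes lower, and 5 replication genes were higher and 0 lower, against 8.42% of all genes higher. The 4 c/chip arrays lay wholly below the 4 control arrays for 9 mitosis genes and for 1 replication gene, against 2.82% of all genes. They lay wholly above them for 0 mitosis genes and 3 replication genes, against 4.18% of all genes. Genes with a mean level of at least 5.5 numbered 7512 and include all the measured mitosis and replication genes. Of these 7512, 92 were called lower and 184 higher, and 712 were lower and 1031 higher at an unadjusted p under 0.05. Arrays lay wholly below for 346 of them and wholly above for 561.

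**Figure D1:**
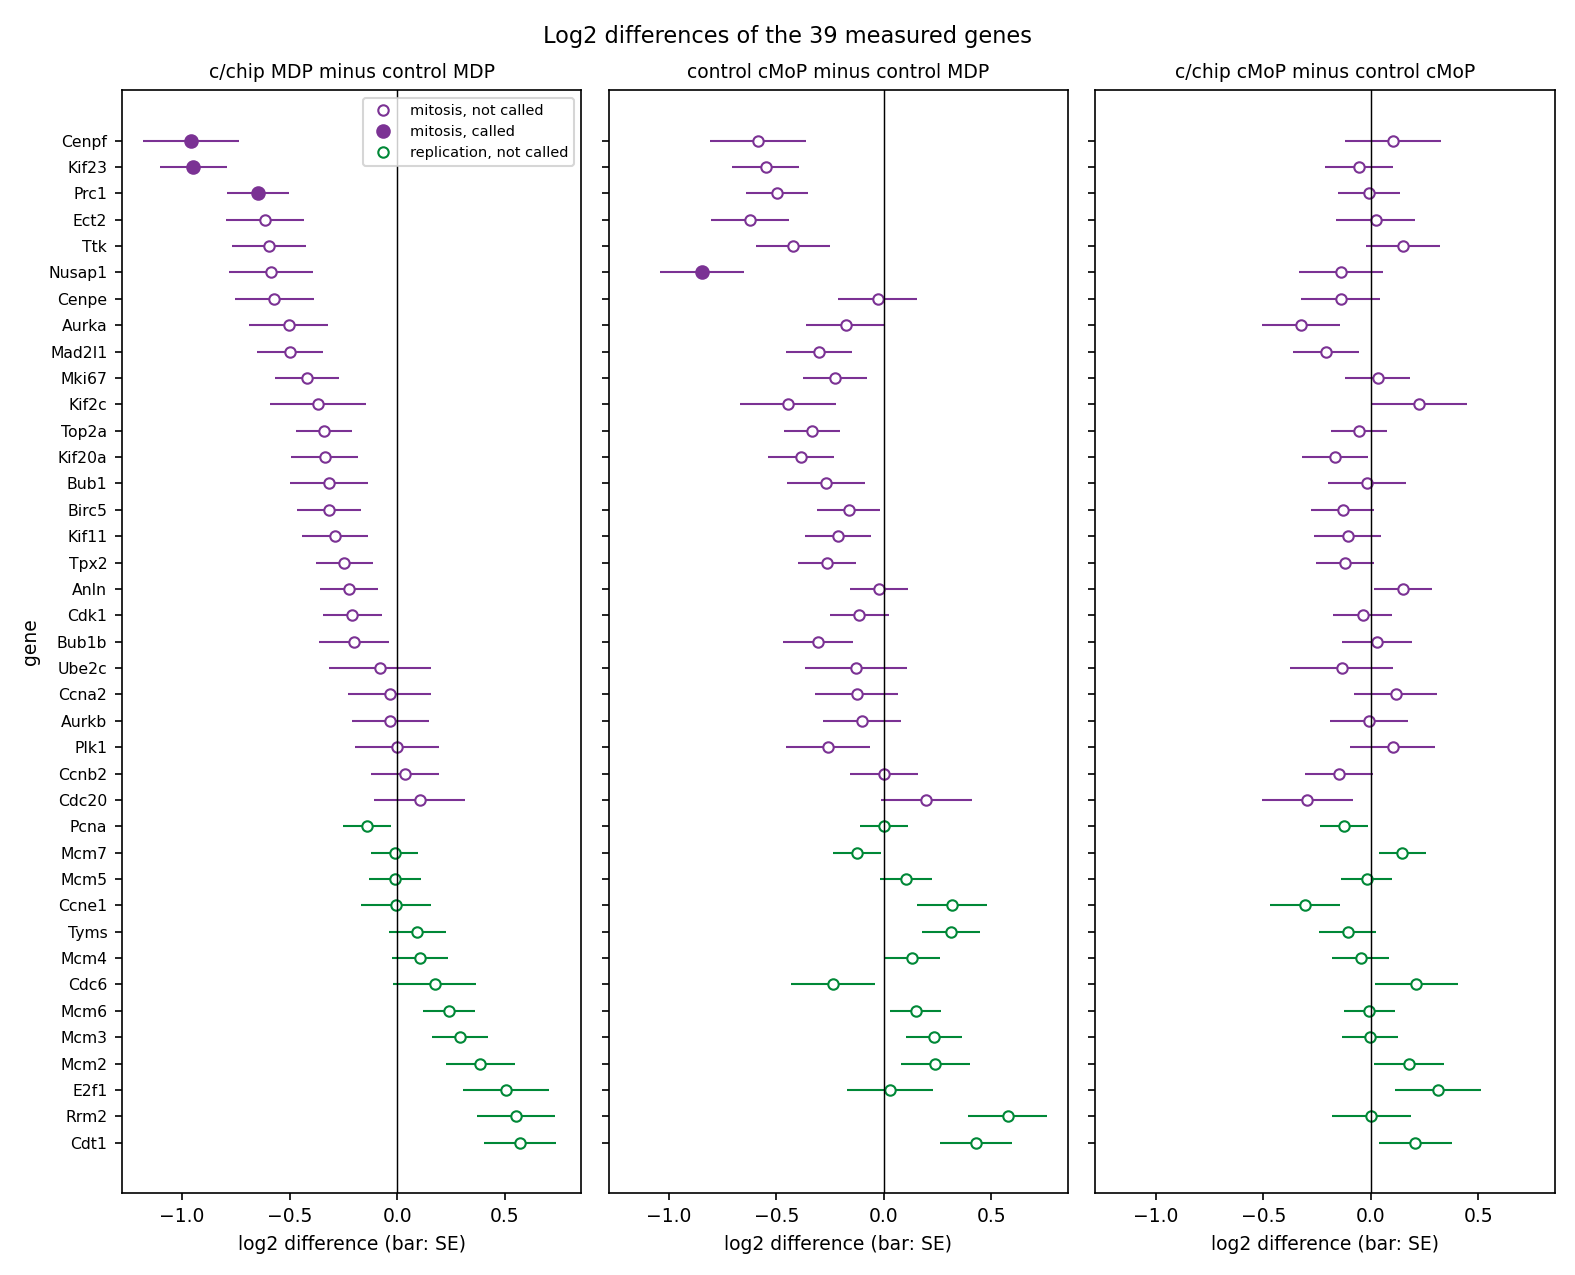
Log2 differences with their standard errors for the 39 measured genes in 3 comparisons, mitosis genes in purple above and replication genes in green below, sorted by the difference between c/chip and control MDPs. Filled points passed the test; purple points lie mostly left of 0 in the left and middle panels, which share the control MDP arrays, while both colours straddle 0 between the genotypes in cMoPs on the right.

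With replicate 2 alone for the c/chip MDPs, 20 of 26 mitosis genes still lay below 0 with a median of −0.21, and 9 of 13 replication genes above 0 with a median of 0.09, but 0 genes of either group were called. Leaving out 1 array gave 1 to 3 calls, and 1 without c/chip MDP replicate 4, control MDP replicate 3 or control MDP replicate 4. Leaving out any 1 of the 16 arrays left 20 to 25 mitosis genes below 0 and medians of −0.38 to −0.25. The corresponding replication medians were 0.12 to 0.22. In these sorted populations, fewer cells in mitosis and less mitotic RNA per cell cannot be told apart.

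Of the 3 called genes, 2 act in cytokinesis. Kif23 encodes the motor subunit of centralspindlin, which gathers at the middle of the late spindle and marks where the cell will divide. Its level was 8.18, 8.08, 7.92 and 8.37 in c/chip MDPs, against 8.83, 9.21, 9.27 and 9.02 in control MDPs. Every c/chip MDP array lay below every control MDP array. The difference was −0.95 (SE 0.158, 1.93-fold lower, adjusted p = 0.00495), and the call was kept in all 16 fits that left out 1 array (adjusted p 0.00285 to 0.0186). With replicate 2 alone for the c/chip MDPs it was −1.002, which was not called (adjusted p = 0.0979).

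Prc1, a protein that bundles antiparallel microtubules at the same midzone, stood at 8.52, 8.21, 8.49 and 8.40 in c/chip MDPs and at 9.02, 8.98, 9.12 and 9.10 in control MDPs. All c/chip MDP arrays lay under all control MDP arrays. The difference was −0.65 (SE 0.144, 1.57-fold lower, adjusted p = 0.0293). The call was lost without c/chip MDP replicate 2 or 4 and without control MDP replicate 1, 3 or 4, with adjusted p from 0.0545 to 0.0747. With c/chip MDP replicate 2 alone the difference was −0.84 (adjusted p = 0.144).

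Cenpf, a large protein of the outer kinetochore, gave the lowest difference of the 39 measured replication and mitosis genes, −0.96 (SE 0.225, 1.94-fold lower, adjusted p = 0.038). Its levels were 7.14, 6.27, 6.32 and 6.64 in c/chip MDPs, against 7.09, 7.77, 7.94 and 7.40 in control MDPs. Replicate 1 of the c/chip MDPs lay just above replicate 1 of the control MDPs, so the groups overlapped. The call was lost in 8 of the 16 fits that left out 1 array (adjusted p 0.0501 to 0.112), namely without replicate 2, 3 or 4 of either MDP group, without c/chip cMoP replicate 1 or without control cMoP replicate 1. With c/chip MDP replicate 2 alone it was −1.28 (adjusted p = 0.103).

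**Figure D2:**
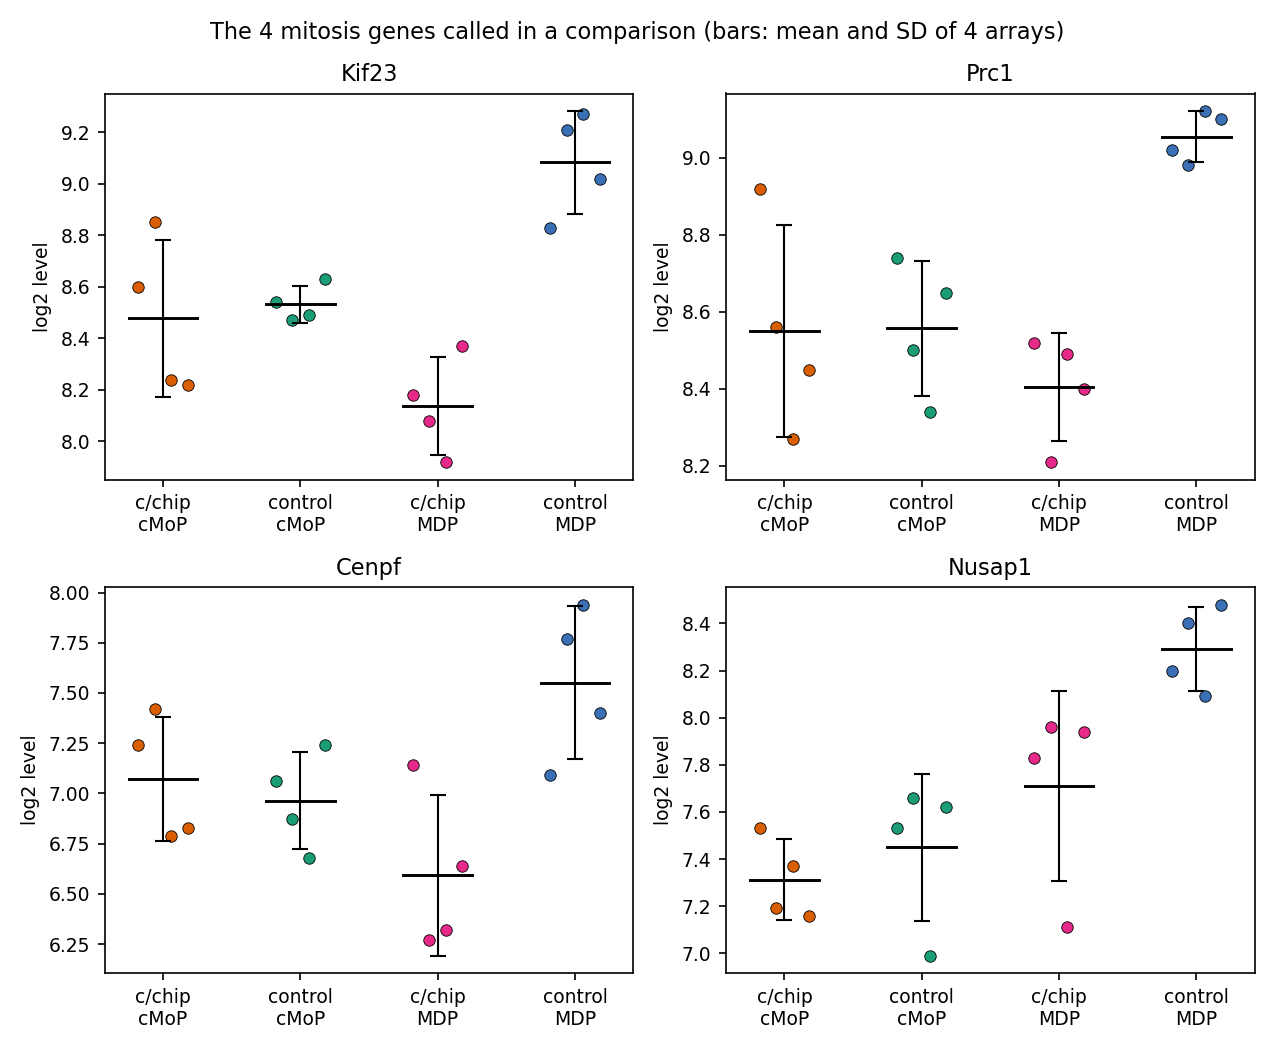
Log2 levels of Kif23, Prc1, Cenpf and Nusap1 on each of the 16 arrays, with mean and SD of the 4 arrays of each group. Control MDPs, on the right of each panel, are the highest group by mean for all 4 genes, and Kif23 lies between 7.92 and 8.37 in c/chip MDPs against 8.83 to 9.27 in control MDPs.

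The rest of the mitosis genes were not called between the MDP genotypes, and their values are given by role. All 6 cytokinesis and midzone genes lay below 0, from −0.95 for Kif23 to −0.22 for Anln, the ring scaffold anillin. Ect2, which activates RhoA for the contractile ring, differed by −0.62 (SE 0.183, adjusted p = 0.101) without overlap. Kif20a, a cytokinesis kinesin, differed by −0.34, and Birc5, the survivin subunit of the chromosomal passenger complex, by −0.32. Cenpe, the kinetochore kinesin, was at −0.57 (SE 0.184, adjusted p = 0.132), again without overlap.

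Among the 4 spindle genes the range was −0.59 to −0.25. Nusap1, which binds and steadies spindle microtubules, stood at 7.83, 7.96, 7.11 and 7.94 in c/chip MDPs, against 8.20, 8.40, 8.09 and 8.48 in control MDPs (difference −0.59, SE 0.195, adjusted p = 0.146). No c/chip MDP array reached the control MDP arrays, and replicate 3 was well below the other c/chip arrays. Kif2c, a kinesin that takes microtubules apart, stood at 7.02, 7.52, 6.71 and 7.45 in c/chip MDPs and at 7.22, 7.03, 8.04 and 7.89 in control MDPs. The 2 groups overlapped (difference −0.37, SE 0.224, adjusted p = 0.494). Kif11, which pushes the poles apart, differed by −0.29 and Tpx2, which activates Aurora A on the spindle, by −0.25.

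Of the 6 genes of the spindle checkpoint and the anaphase-promoting complex, 5 lay below 0. Ttk, the kinase that starts the checkpoint, differed by −0.60 (SE 0.172, adjusted p = 0.0901) without overlap, and Mad2l1, which holds Cdc20 inactive, by −0.50 (SE 0.153, adjusted p = 0.113). Bub1 and Bub1b, both checkpoint proteins at the kinetochore, differed by −0.32 and −0.20. Cdc20, the activator of the anaphase-promoting complex, stood at 8.55, 8.68, 7.80 and 9.0 in c/chip MDPs, against 8.37, 8.43, 8.11 and 8.70 in control MDPs (difference 0.11, SE 0.212). These arrays overlapped throughout, and Ube2c, the ubiquitin-conjugating partner of that complex, differed by −0.08 (SE 0.238).

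The cyclins and their kinase gave differences of −0.21 to 0.04 between the MDP genotypes. Ccna2 differed by −0.03 (SE 0.194), Ccnb2 by 0.04 (SE 0.158) and Cdk1 by −0.21 (SE 0.137). Of the kinases, Plk1 differed by 0.0009 (SE 0.196) and Aurkb by −0.03 (SE 0.181), whereas Aurka, the centrosome kinase, differed by −0.50 (SE 0.183, adjusted p = 0.188). Aurka stood at 7.97, 8.03, 7.38 and 7.30 in c/chip MDPs and at 7.98, 8.10, 8.27 and 8.35 in control MDPs, with replicates 3 and 4 of the c/chip MDPs below the rest. Top2a, which untangles sister chromatids, and Mki67, which coats mitotic chromosomes, differed by −0.34 and −0.42, the first without overlap.

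Replication genes gave 0 calls between the MDP genotypes, and those with the largest differences were higher in c/chip MDPs. Of the 8 licensing genes, 6 lay above 0. Cdt1, the loader that is destroyed once S phase starts, stood at 9.25, 9.46, 9.24 and 9.16 in c/chip MDPs, against 8.91, 8.66, 8.30 and 8.96 in control MDPs. All c/chip arrays were above all control arrays, with a difference of 0.57 (SE 0.168, adjusted p = 0.0986). Its partner Cdc6 stood at 8.83, 8.59, 8.73 and 8.55 in c/chip MDPs and at 8.42, 8.5, 8.49 and 8.60 in control MDPs, which overlapped (difference 0.17, SE 0.194).

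The helicase subunits ranged from −0.01 to 0.39. Mcm2, Mcm3 and Mcm6 differed by 0.39, 0.29 and 0.24, with Mcm3 and Mcm6 free of overlap, whereas Mcm4 and Mcm5 differed by 0.11 and −0.01. Mcm7 stood at 9.16, 9.05, 9.15 and 9.16 in c/chip MDPs, against 9.25, 9.04, 9.14 and 9.14 in control MDPs (difference −0.01, SE 0.111). The arrays of both genotypes overlapped.

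Of the S-phase regulators, E2f1 stood at 6.11, 5.46, 6.45 and 5.83 in c/chip MDPs, against 5.76, 5.46, 5.10 and 5.5 in control MDPs (difference 0.51, SE 0.201, adjusted p = 0.239). The groups overlapped through c/chip replicate 2. Cyclin E1 (Ccne1) stood at 7.03, 6.5, 6.53 and 6.52 in c/chip MDPs and at 6.97, 6.69, 6.48 and 6.46 in control MDPs, a difference of −0.01 (SE 0.163). Rrm2, the regulated subunit of ribonucleotide reductase, stood at 9.28, 9.14, 9.46 and 8.93 in c/chip MDPs, against 9.12, 8.74, 8.20 and 8.53 in control MDPs (difference 0.55, SE 0.183, adjusted p = 0.144).

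The remaining fork genes showed smaller differences. Tyms, thymidylate synthase, stood at 8.05, 8.06, 7.90 and 7.88 in c/chip MDPs and at 7.62, 7.88, 8.17 and 7.84 in control MDPs (difference 0.09, SE 0.133). Pcna, the sliding clamp, stood at 10.95, 10.94, 10.96 and 10.76 in c/chip MDPs, against 11.08, 11.03, 11.06 and 10.99 in control MDPs. It was the 1 replication gene whose c/chip arrays all lay below the control arrays, by a small margin (difference −0.14, SE 0.111, adjusted p = 0.636).

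Averaged over the genes of each group, the arrays of the 2 MDP genotypes did not overlap. The mean of the mitosis genes was 8.51, 8.49, 8.08 and 8.47 in c/chip MDPs, against 8.62, 8.73, 8.73 and 8.87 in control MDPs. The mean of the replication genes was 8.93, 8.77, 8.91 and 8.82 in c/chip MDPs and 8.75, 8.62, 8.59 and 8.61 in control MDPs, where the closest arrays of the 2 groups, c/chip MDP replicate 2 and control MDP replicate 1, were nearly level. The mitosis mean minus the replication mean was −0.84 to −0.28 in c/chip MDPs and −0.13 to 0.26 in control MDPs. In both kinds of cMoP it overlapped with that of the c/chip MDPs, at −0.56 to −0.24 in c/chip cMoPs and −0.61 to −0.18 in control cMoPs.

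**Figure D3:**
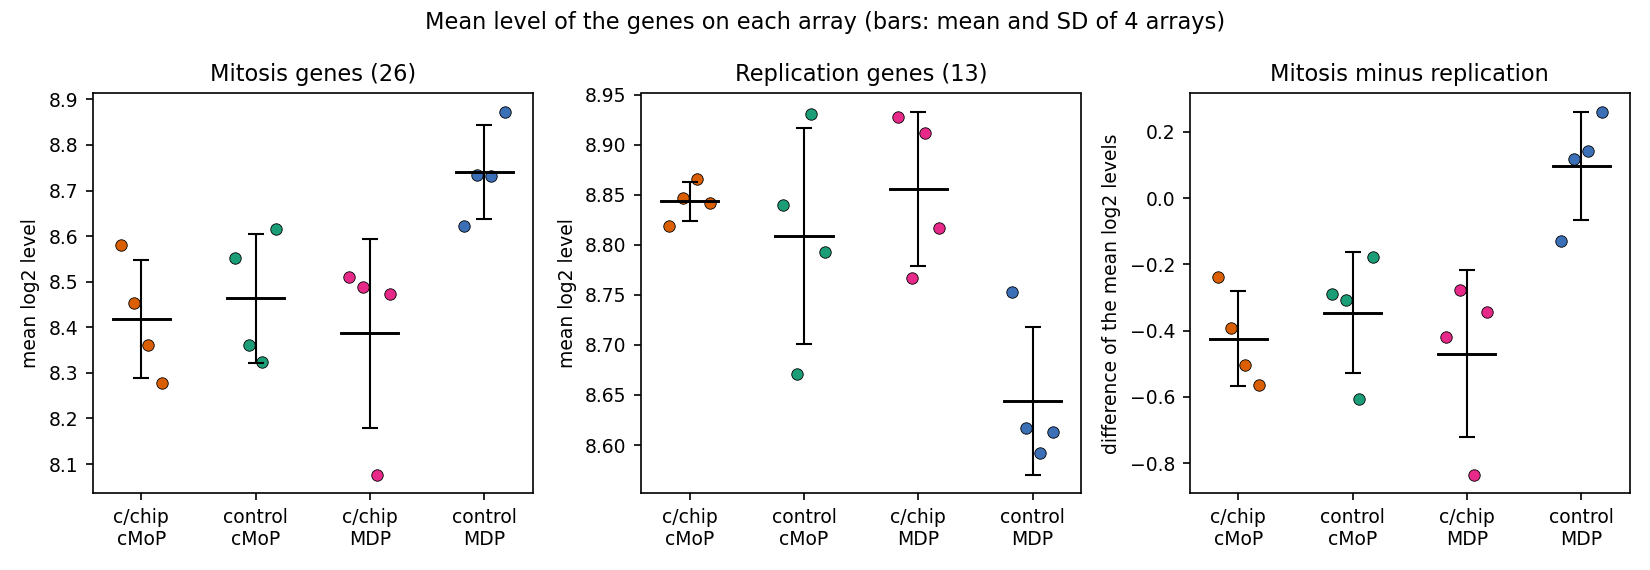
Mean log2 level of the 26 mitosis genes and of the 13 replication genes on each array, and the first minus the second, with mean and SD of the 4 arrays of each group. Control MDPs do not overlap the other 3 groups in the right panel, at −0.13 to 0.26 against −0.84 to −0.18, but the nearest arrays are close. These are control MDP replicate 1 (−0.13) and control cMoP replicate 4 (−0.18).

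Other transcripts moved between the MDP genotypes at the same time. All 15 neutrophil granule markers lay higher in c/chip MDPs, 6 of them called, with array means of 8.04 to 9.97 in c/chip MDPs and 5.92 to 8.01 in control MDPs. Their means were also 7.56 to 8.87 in c/chip cMoPs and 7.64 to 8.38 in control cMoPs. Against c/chip MDPs, 7 of the 15 lay higher and 8 lower in c/chip cMoPs, with 2 called each way. All 10 megakaryocyte and erythroid markers lay higher in c/chip MDPs than in control MDPs, 7 of them called. The means of these 10 were 5.80 to 6.92 in c/chip MDPs and 4.12 to 4.99 in control MDPs. For 2 of these 10 the mean in control MDPs was below every array median, and 0 of 10 were in c/chip MDPs. Mast cell and basophil markers lay higher for 7 of 7 genes, 5 called, with means of 6.13 to 7.56 in c/chip MDPs and 4.83 to 5.57 in control MDPs. Dendritic cell markers had means of 5.61 to 5.80 in c/chip MDPs and 6.31 to 6.78 in control MDPs, with 3 of 9 called lower, and 4 of 9 below every array median in c/chip MDPs and 2 of 9 in control MDPs. Lymphoid markers had means of 3.13 to 3.618 in c/chip MDPs and 4.06 to 4.52 in control MDPs, with 2 of 9 called lower. Their median difference was only −0.09, and 4 of 9 lay above 0. Dntt had group means of 4.25 in c/chip MDPs and 8.94 in control MDPs, and Il7r of 2.89 and 6.06. Below every array median were 5 of 9 lymphoid markers in c/chip MDPs and 4 of 9 in control MDPs. Of 14 immediate early genes, 13 lay lower, 0 called, with means of 5.26 to 7.35 in c/chip MDPs and 6.42 to 8.00 in control MDPs. The part of these transcripts in the differences of the mitosis and replication genes was not tested, apart from the fit with immediate early genes as a covariate, chosen after seeing the data. In it Kif23 stayed called (−0.87, adjusted p = 0.0169), whereas Cenpf (−0.82, adjusted p = 0.0934) and Prc1 (−0.58, adjusted p = 0.0757) were not.

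Between the genotypes in cMoPs, 0 mitosis and 0 replication genes were called by limma, and 0 had an unadjusted p under 0.05. Over all genes 0.113% were called and 4.74% had such a p. The median difference was −0.05 for mitosis genes, with 17 of 26 below 0, and 0.00 for replication genes, with 7 of 13 below 0. The values ran from −0.32 to 0.23 for mitosis genes and from −0.31 to 0.31 for replication genes, with standard errors up to 0.238. Kif23 stood at 8.60, 8.85, 8.24 and 8.22 in c/chip cMoPs, against 8.54, 8.47, 8.49 and 8.63 in control cMoPs (difference −0.06, SE 0.158). Prc1 differed by −0.01 (SE 0.144), at 8.92, 8.56, 8.27 and 8.45 in c/chip cMoPs and 8.74, 8.5, 8.34 and 8.65 in control cMoPs. Cenpf differed by 0.10 (SE 0.225), at 7.24, 7.42, 6.79 and 6.83 in c/chip cMoPs and 7.06, 6.87, 6.68 and 7.24 in control cMoPs. For all 3 genes the arrays of the genotypes overlapped.

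The lowest and highest differences in cMoPs were those of other genes. Aurka stood at 7.91, 7.64, 7.56 and 7.59 in c/chip cMoPs, against 8.27, 7.92, 7.67 and 8.14 in control cMoPs (difference −0.32, SE 0.183). Cdc20 differed by −0.29, at 8.60, 8.02, 8.11 and 8.49 in c/chip cMoPs and 8.59, 8.60, 8.54 and 8.67 in control cMoPs. Kif2c had the highest difference of the mitosis genes (0.23, SE 0.224), at 7.39, 7.42, 7.22 and 7.26 in c/chip cMoPs and 7.11, 6.93, 6.94 and 7.41 in control cMoPs. Each of these pairs overlapped in at least 1 array. E2f1 stood at 5.65, 6.16, 5.66 and 5.70 in c/chip cMoPs, against 5.46, 5.42, 5.73 and 5.32 in control cMoPs (difference 0.31, SE 0.201), and Ccne1 at 6.47, 6.73, 6.65 and 6.80 in c/chip cMoPs and 6.86, 7.26, 7.01 and 6.74 in control cMoPs (difference −0.31, SE 0.163).

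The genotype differences in cMoPs minus those in MDPs were positive for 23 of 26 mitosis genes (median 0.26) and negative for 10 of 13 replication genes (median −0.20), where the median of all genes was −0.04. With c/chip MDP replicate 2 alone the medians were 0.16 for mitosis genes, with 8 of 26 below 0, and −0.12 for replication genes. The replication median was also −0.12 without control cMoP replicate 3. In this test of the difference itself, limma called 0 of the 39 genes, and 0.0586% of all genes. At an unadjusted p under 0.05 there were 6 mitosis genes, all positive, and 1 replication gene, Rrm2, negative, against 8.52% of all genes. Cenpf (1.06, SE 0.318, adjusted p = 0.339), Kif23 (0.89, SE 0.223, adjusted p = 0.221), Ttk (0.75, SE 0.243) and Prc1 (0.64, SE 0.204) were the highest. A different genotype effect in the 2 progenitors was thus not shown for any single gene here.

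Control cMoPs also had lower mean levels of mitosis genes than control MDPs. This comparison uses the same control MDP arrays as the one between MDP genotypes, so the 2 are not independent. Of the mitosis genes 24 of 26 lay below 0 (median −0.26), and of the replication genes 10 of 13 above 0 (median 0.15), against a median of 0.00 and 49.4% above 0 for all genes. The test called 1 mitosis gene lower, Nusap1, and 0 genes higher, where 1.71% of all genes were called lower and 2.84% higher. At an unadjusted p under 0.05, 8 mitosis genes were lower, against 7.02% of all genes, and 3 replication genes higher, against 9.13%. Control cMoP arrays lay wholly below control MDP arrays for 6 mitosis genes, against 4.76% of all genes, and wholly above them for 0 of the 39, against 6.03%. Among the 7512 genes with a mean level of at least 5.5, 58.2% lay above 0, with a median of 0.07. Of these, 218 were called lower and 477 higher, and 704 were lower and 1387 higher at an unadjusted p under 0.05. Arrays lay wholly below for 537 of them and wholly above for 957.

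Nusap1 stood at 7.53, 7.66, 6.99 and 7.62 in control cMoPs, against 8.20, 8.40, 8.09 and 8.48 in control MDPs. No control cMoP array reached the control MDP arrays, and the difference was −0.84 (SE 0.195, 1.80-fold lower, adjusted p = 0.017). The call was lost without control MDP replicate 4 (−0.78, adjusted p = 0.0545) or control cMoP replicate 3 (−0.69, adjusted p = 0.0653). Kif23, Prc1 and Ect2 differed by −0.55 (adjusted p = 0.058), −0.50 (adjusted p = 0.0607) and −0.62 (adjusted p = 0.0644), all without overlap. They were not called here, but each was called in some of the alternative fits. Cenpf differed by −0.58 (SE 0.225) and Cenpe by −0.03 (SE 0.184).

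Of the replication genes in control cMoPs, Rrm2 stood highest against control MDPs, at 9.40, 9.29, 9.12 and 9.09 in control cMoPs and 9.12, 8.74, 8.20 and 8.53 in control MDPs (difference 0.58, SE 0.183, adjusted p = 0.0926). It was called without control MDP replicate 1 (0.73, adjusted p = 0.0242), the control MDP array with the highest level. Cdt1 stood at 9.24, 8.78, 9.27 and 9.25 in control cMoPs, against 8.91, 8.66, 8.30 and 8.96 in control MDPs (difference 0.43, SE 0.168), and Tyms at 8.21, 8.25, 8.03 and 8.27, against 7.62, 7.88, 8.17 and 7.84 (difference 0.31, SE 0.133). Cdc6 had the lowest difference of the group (−0.24, SE 0.194), at 8.38, 7.57, 8.76 and 8.35 in control cMoPs and 8.42, 8.5, 8.49 and 8.60 in control MDPs. These 3 overlapped between the cell types. The same comparison had 6 of 15 neutrophil granule markers called higher and 4 of 9 dendritic cell markers called lower in control cMoPs. It also had 3 of 10 megakaryocyte and erythroid markers and 3 of 9 lymphoid markers called lower, and of 7 mast cell and basophil markers 1 called higher and 2 lower. Their part in these differences was not tested.

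Between c/chip cMoPs and c/chip MDPs, limma called 0 of the 39 genes, where 3.29% of all genes were called. The medians were 0.01 for mitosis genes and 0.02 for replication genes, against −0.04 for all genes. Neither median kept its sign. The mitosis median was −0.13, with 16 of 26 genes below 0, with c/chip MDP replicate 2 alone, and −0.11 without c/chip MDP replicate 3. It was −0.05 without c/chip cMoP replicate 1, −0.01 without c/chip MDP replicate 4, −0.03 after quantile normalization and −0.04 with array weights. The replication median was 0.06 with c/chip MDP replicate 2 alone, −0.03 without c/chip MDP replicate 2 or after quantile normalization, and −0.0061 without c/chip cMoP replicate 2 and −0.0012 with array weights. At an unadjusted p under 0.05 there were 4 mitosis genes, all higher in c/chip cMoPs, against 15.9% of all genes in either direction. They were Cenpf (0.48, SE 0.225), Cenpe (0.40, SE 0.184), Anln (0.35, SE 0.135) and Kif23 (0.34, SE 0.158). Nusap1 had the lowest difference (−0.40, SE 0.195), at 7.53, 7.19, 7.37 and 7.16 in c/chip cMoPs and 7.83, 7.96, 7.11 and 7.94 in c/chip MDPs, overlapping through c/chip MDP replicate 3.

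The spread among arrays of the same group was described as follows. Each gene's deviations from its group means were correlated with those of the mean of the other genes of its kind, over 16 arrays in 1 normalization, as a description without a test. For mitosis genes the correlation was highest for Cenpe (0.891), Ect2 (0.883) and Ttk (0.826), and lowest for Mad2l1 (−0.068) and Cdk1 (0.018). For replication genes it ran from −0.575 for Tyms to 0.641 for Mcm6. Over all 16 arrays, the genes outside the lists whose levels correlated best with the mean of the mitosis genes were Prr11 (0.887), Parp6, Spag5, Nectin3 and Zmiz1 (0.812), of which Nectin3 had a mean level of 2.85, below every array median. For the mean of the replication genes they were Bysl (0.941), Prkar2b, Cs, Eif4ebp1 and Cope (0.874).

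Wider lists of the same machinery were counted in the same way, beside 54.3% of all genes above 0, 1.26% called higher and 0.685% called lower in c/chip MDPs. Of 56 measured further mitosis genes, 47 lay lower in c/chip MDPs than in control MDPs (median −0.25), and Shcbp1, a midbody protein, was called lower (−0.76, SE 0.145, adjusted p = 0.013), at 6.51 to 6.94 in c/chip MDPs and 7.17 to 7.64 in control MDPs. Of 38 further replication genes, 23 lay higher (median 0.06) and 0 were called. Ccnd1, cyclin D1, which links growth signals to G1, was the 1 of 21 cell cycle regulators called, at 7.92 to 8.51 in c/chip MDPs and 6.02 to 7.22 in control MDPs (difference 1.5, SE 0.317, adjusted p = 0.0233). Of 12 cell cycle inhibitors, Btg1, an antiproliferative factor, was called lower (−0.75, SE 0.173, adjusted p = 0.0354). All 13 checkpoint and repair genes lay below 0, and Brca1, of homologous recombination, was called lower (−0.62, SE 0.155, adjusted p = 0.0493). Between the genotypes in cMoPs 0 genes of these 5 lists were called, and 1, Ccnd1, had an unadjusted p under 0.05 (difference 1.04, adjusted p = 0.595).

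Several of these calls depended on single arrays. Shcbp1 was kept in all 16 fits without 1 array. Ccnd1 was lost in 4 of them, without c/chip MDP replicate 1 or 4 or control MDP replicate 2 or 3 (adjusted p up to 0.0638). Btg1 was lost in 7, without any of the 4 control MDP arrays or without c/chip MDP replicate 2, 3 or 4 (adjusted p up to 0.0944). Brca1 was lost in 13, and was kept without c/chip cMoP replicate 2 or control cMoP replicate 2 or 3 (adjusted p up to 0.117). With c/chip MDP replicate 2 alone none of the 4 was called, at −0.76 for Shcbp1, 1.33 for Ccnd1, −0.68 for Btg1 and −0.58 for Brca1 (adjusted p 0.186 to 0.412).

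In control cMoPs, 3 of the 38 further replication genes were called higher than in control MDPs, where 2.84% of all genes were called higher and 1.71% lower. Calls were more frequent among the 7512 genes with a mean level of at least 5.5, with 477 higher and 218 lower. The 3 replication calls are therefore not read as a result about that list. The 3 genes were Cdc45, the helicase cofactor (0.76, SE 0.129, adjusted p = 0.00168), Chaf1a, which deposits histones behind the fork (0.64, SE 0.122, adjusted p = 0.00392), and Prim1, the primase subunit (0.51, SE 0.134, adjusted p = 0.0356). Cdc45 was at 8.56 to 9.07 in control cMoPs and 7.99 to 8.24 in control MDPs. Of the 56 further mitosis genes 4 were called lower, Cdc25b, the phosphatase that activates Cdk1 (−1.58, SE 0.303, adjusted p = 0.00395), Aspm, of the spindle pole (−0.73, adjusted p = 0.023), the mitotic kinase Pbk (−0.53, adjusted p = 0.0331) and Bub3, of the checkpoint (−0.45, adjusted p = 0.0225). Cdc25b was at 4.22 to 5.25 in control cMoPs and 5.53 to 7.02 in control MDPs. Cyclin D2 (Ccnd2) was called lower in cMoPs of both genotypes, by −1.07 in control cMoPs (SE 0.186, adjusted p = 0.00203) and by −0.94 in c/chip cMoPs (SE 0.186, adjusted p = 0.0079). The inhibitor Cdkn1b (p27) was called lower in control cMoPs (−0.59, SE 0.146, adjusted p = 0.0257).

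Of these, Cdc45, Chaf1a, Cdc25b and both calls of Ccnd2 were kept in all 16 fits without 1 array, though Ccnd2 was not called between the c/chip progenitors with c/chip MDP replicate 2 alone (−0.89, adjusted p = 0.222). Aspm was lost without control MDP replicate 3 or 4 or control cMoP replicate 2 or 3 (adjusted p up to 0.0718). Bub3 was lost without control MDP replicate 1, 2 or 4 or control cMoP replicate 1 or 3 (up to 0.0744), and Pbk without control MDP replicate 1 or 3 or control cMoP replicate 1, 3 or 4 (up to 0.109). Cdkn1b was lost without control MDP replicate 1, 2 or 4 or control cMoP replicate 1, 3 or 4 (up to 0.092). Prim1 was lost in 8 fits, without control MDP replicate 1, 2 or 4, any control cMoP array or c/chip cMoP replicate 4 (up to 0.107).

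Promoter letters were compared as a description. The genes were not chosen by these letters, but the motifs searched were already known from promoters of such genes. Their shares are therefore not separate evidence about the lists. Many mitosis promoters are known to carry the cell cycle homology region, bound by the DREAM and MuvB complexes, near the start of transcription, and CCAAT boxes bound by NF-Y. Promoters of replication genes are known for E2F sites. RefSeq windows of assembly GRCm38.p6, from 250 bases before to 50 after the first listed start, were found for 23 of 27 mitosis and 12 of 14 replication genes. They were searched on both strands for TTTGAA and for TTTAAA (the 2 spellings of the homology region), for CCAAT, and for the E2F core as TTGGCGC or TTCGCGC or TTCCCGC, where overlapping matches count once per promoter. A match is a description of letters only.

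TTTGAA was found in 17 of 23 mitosis windows (73.9%), in 1 of 12 replication windows (8.33%) and in 18.1% of the 27025 windows of all genes. Within 50 bases of the start it was in 65.2% of mitosis windows, 0% of replication windows and 4.92% of all windows. TTTAAA was in 30.4% of mitosis, 25% of replication and 13.2% of all windows. CCAAT was in 78.3% of mitosis, 58.3% of replication and 37.9% of all windows. The E2F core was in 17.4% of mitosis windows, 50% of replication windows and 8.21% of all windows.

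**Figure D4:**
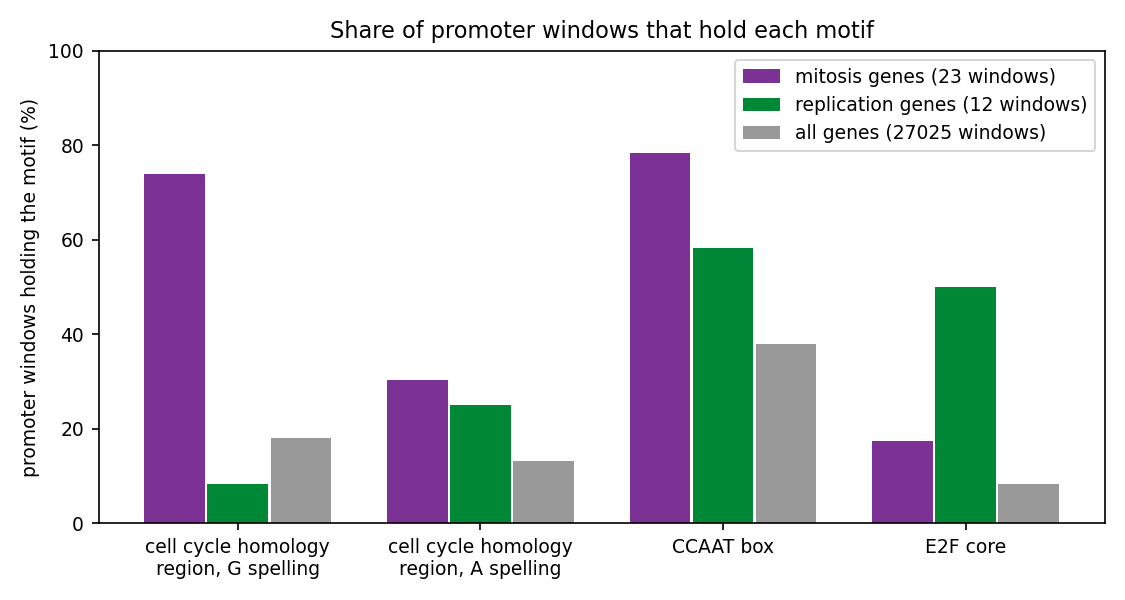
Share of promoter windows that hold each motif, for the 23 mitosis and 12 replication genes with a window and for all 27025 windows. The G spelling of the cell cycle homology region is in 73.9% of the mitosis windows against 8.33% of the replication windows, and the E2F core in 17.4% against 50%.

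The promoters of the 3 mitosis genes called lower in c/chip MDPs are printed to show where these letters lie, with motifs in capitals and read 5′ to 3′ along the gene. Kif23 lies at chr9:61946750-61947049 on the minus strand, Prc1 at chr7:80294201-80294500 on the plus strand and Cenpf at chr1:189688037-189688336 on the minus strand. TTTGAA begins at base 3 of the transcript in Kif23 and Cenpf and 5 bases before the start in Prc1. CCAAT lies 37 bases before the start in Prc1, 132 and 71 before it in Cenpf, and on the opposite strand 7 before it in Kif23.
Kif23: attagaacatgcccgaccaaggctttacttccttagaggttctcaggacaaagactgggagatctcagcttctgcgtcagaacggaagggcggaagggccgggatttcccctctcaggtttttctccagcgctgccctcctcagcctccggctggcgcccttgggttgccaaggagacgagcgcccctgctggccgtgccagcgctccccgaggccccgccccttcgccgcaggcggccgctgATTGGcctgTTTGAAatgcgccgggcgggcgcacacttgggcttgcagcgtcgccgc
Prc1: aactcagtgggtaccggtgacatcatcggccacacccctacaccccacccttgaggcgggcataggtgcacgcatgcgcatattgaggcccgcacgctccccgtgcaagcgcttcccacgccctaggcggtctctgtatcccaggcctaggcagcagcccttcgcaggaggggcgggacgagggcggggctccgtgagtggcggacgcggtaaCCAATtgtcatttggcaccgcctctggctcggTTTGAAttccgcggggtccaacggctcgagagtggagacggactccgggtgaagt
Cenpf: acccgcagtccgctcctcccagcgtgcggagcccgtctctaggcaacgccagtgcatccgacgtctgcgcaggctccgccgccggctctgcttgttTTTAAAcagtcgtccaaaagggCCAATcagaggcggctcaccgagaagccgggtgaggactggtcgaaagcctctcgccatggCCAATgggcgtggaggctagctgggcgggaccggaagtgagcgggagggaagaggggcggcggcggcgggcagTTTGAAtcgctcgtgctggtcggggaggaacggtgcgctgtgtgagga

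For contrast, Nusap1 (chr2:119618048-119618347, plus strand), called lower in control cMoPs, held none of the motifs in its window. Of the replication windows, that of Mcm6 (chr1:128359656-128359955, minus strand) had the most E2F core matches and was picked for that after the search. Its 5 matches include 2 overlapping pairs, which begin 109 and 46 bases before the start, and it also holds 2 CCAAT boxes on the opposite strand. Kif23, Prc1 and Cenpf hold 0 matches to the E2F core.
Nusap1: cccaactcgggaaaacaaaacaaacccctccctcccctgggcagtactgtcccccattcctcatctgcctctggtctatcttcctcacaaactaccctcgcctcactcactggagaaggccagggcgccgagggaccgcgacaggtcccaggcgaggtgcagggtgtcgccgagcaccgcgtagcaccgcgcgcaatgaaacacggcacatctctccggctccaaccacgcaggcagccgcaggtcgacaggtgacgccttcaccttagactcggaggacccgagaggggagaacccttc
Mcm6: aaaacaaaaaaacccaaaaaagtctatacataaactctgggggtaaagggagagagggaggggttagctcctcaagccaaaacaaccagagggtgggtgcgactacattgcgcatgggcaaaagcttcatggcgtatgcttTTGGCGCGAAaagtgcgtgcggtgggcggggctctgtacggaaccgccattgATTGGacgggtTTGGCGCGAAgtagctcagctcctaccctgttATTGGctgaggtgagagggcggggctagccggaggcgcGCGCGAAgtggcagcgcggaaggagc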

How the data were processed

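Total RNA of sorted cells was measured on 16 Affymetrix arrays, 4 in each of 4 groups taken from the source name and genotype labels. Titles name both genotypes for control cMoPs, so titles gave only replicate numbers. The log2 levels used were deposited by the authors in the series matrix, and affy, RMA and limma are named in the submitters' processing notes. Tool versions: not given in the sources used here. Background correction, quantile normalisation and probe summary are the steps of RMA, which can compress small differences at low levels. A second table, with 16 value columns matching no label, was not used. The design text names another array type than the annotation, so gene names rest on that annotation.

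Of 41345 probe sets, 23521 had 1 symbol, 1820 several and 16004 none, and 23328 of the first were found in RefSeq by Entrez identifier. The brightest probe set per gene was kept (22180 genes), and Rrm2 had 2. Array medians were 3.43 to 3.62, and the number of arrays limits the precision. One model of 4 group means was fitted to the 16 arrays with limma 3.58.1 (lmFit, eBayes) in R 4.3.3, adjusted by Benjamini-Hochberg over all genes at 0.05, after the script was tested on simulated data. There were 5 comparisons. The genes, lists and roles were chosen with earlier results of these data known. Values per array are given for genes called in any comparison and for the highest and lowest of each group of genes in each comparison, and other lists give up to 4 called genes per direction. Alternatives were the mean of probe sets, a filter on the dimmest genes, quantile or median scaling, a trended robust fit, array weights, only the arrays compared, omission of each array in turn, and replicate number as a block. Covariate fits (immediate early, Y-linked), the fit with c/chip MDP replicate 2 alone and the repeat for the wider lists were chosen after seeing the data.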

Additional observations from a re-analysis of the deposited data

Results flagged for a closer look

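A sample was singled out where it lay far from the other 3 of its group (Dixon's ratio of gap to range, at its usual critical value), in 72 groups of 4 values. Chance alone singles out about 1 group in 20, and 9 were found. In c/chip MDPs, Nusap1 was at 7.11 and the mean of the mitosis genes at 8.08 in replicate 3, below the other 3 arrays. Ccne1 was high in c/chip MDP replicate 1 (7.03), Mcm7 low in replicate 2 (9.05) and Pcna low in replicate 4 (10.76). The mean of the replication genes was 8.75 in control MDP replicate 1, above the other control MDPs. In cMoPs, E2f1 was high in c/chip replicate 2 (6.16), Mcm7 low in c/chip replicate 4 (9.05) and Cdt1 low in control replicate 2 (8.78).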

How the results depend on the processing

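In c/chip against control MDPs, 3 genes were called, and 1, Kif23, with array weights, in a fit of only the 8 arrays compared and with immediate early genes as a covariate. With c/chip MDP replicate 2 alone the count was 0, where 1 array stands for its group and is assumed to vary like the others. Leaving out each array gave 1 to 3 calls, and 1 without c/chip MDP replicate 4, control MDP replicate 3 or control MDP replicate 4. Mad2l1 (−0.64, adjusted p = 0.0347) was called in place of Cenpf and Prc1 without c/chip MDP replicate 2. With replicate number as a block, 2 were called, and Cenpf was lost (adjusted p = 0.0609). Same-numbered arrays correlated by −0.039 to 0.186 and in no comparison all above 0.1. Such weak correlations cannot tell whether same-numbered arrays share an animal or a day of work. In control MDPs and control cMoPs alike, Xist was high in replicates 1 and 2 and Y-linked transcripts in replicates 3 and 4. The block left the other 4 counts as they were.

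In control cMoPs against control MDPs, 1 gene was called, and 3 without the dimmest genes (Kif23 and Prc1 added), 4 with quantile normalization or with trended and robust variance (Ect2 added too), and 2 (Nusap1 and Ect2) with only the arrays compared or with c/chip MDP replicate 2 alone. Leaving out each array gave 0 to 3, with 0 without control MDP replicate 4 or control cMoP replicate 3, 3 without control MDP replicate 1, and 2 without c/chip MDP replicate 3, c/chip cMoP replicate 1 or c/chip cMoP replicate 2. The counts of the other 3 comparisons were 0 in every fit. For the named genes that were called, 253 fits without 1 array kept a call and 67 lost it, 186 fits under other settings kept a call and 34 lost it, and 0 changed sign. Array means moved by more than the SD of their group in 11 cases of other settings and by less in 85. Searched only before the start, TTTGAA was in 39.1% of mitosis windows, 8.33% of replication windows and 16.3% of all windows. The causes of these changes were not tested.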
